A study of Mus musculus with 36 samples.

Results

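The hypothalamic response to tumour necrosis factor (TNF) given on its own was examined by setting mice injected with TNFα against mice injected with saline. The TNF group was taken as the samples titled as the low TNFα dose, and the Control group as those titled as control. TNF replicate 4 was left out, since the distribution of its values departed from that of every other array. This left 11 of the 36 arrays of the series, 5 of TNF and 6 of Control.

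Gene expression in the whole hypothalamus was measured on Affymetrix Mouse Gene 1.1 ST arrays, 1 for each mouse, with RNA labelled for each animal separately. All mice were male C57BL/6, were housed individually, and received a single intraperitoneal injection of 50 µl, 1 h before the dark phase, and were killed 5 h after it. The Control group (6 arrays) received the saline vehicle without cytokine, and the TNF group (6 arrays, 5 used) received 15 pg TNFα and no IL-6. Among the other groups, IL-6 Low had 50 pg IL-6 and IL-6 High had 800 pg, both without TNFα. The same IL-6 doses with 15 pg TNFα were given to TNF + IL-6 Low and to TNF + IL-6 High. No transgene or deletion is named for any group, and the sources used here do not state the age of the mice. The sample labels call the TNFα dose low, while the study describes a single TNFα dose. Each array is taken as an independent animal from a group of 12 mice. For Control replicates 5 and 6 the label and the array name carry different mouse numbers, but both name the Control group.

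TNF is a cytokine released mainly by activated macrophages. It binds the receptors TNFR1, present on most cells, and TNFR2, found mostly on immune, glial and endothelial cells, and both lead through adaptor proteins to the IkB kinases. These kinases mark the inhibitor IkBα for degradation, which frees the transcription factor NF-kB to enter the nucleus, where it induces chemokines, adhesion molecules and its own inhibitors. In the hypothalamus, which regulates feeding, body temperature and the stress axis, blood-borne TNF is known to reduce food intake and to raise body temperature, in part through prostaglandins made by cells of the vessel wall.

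All values below are log2 intensities, and a difference is the mean of the 5 TNF arrays minus the mean of the 6 Control arrays, so that a difference of 1 is a doubling. Values after ± are standard errors for a difference and SDs for a level. Genes were tested with limma, and p values were adjusted over the 15049 genes tested. Levels per array are given in the order TNF replicates 1, 2, 3, 5 and 6.

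The quartiles of the 35 arrays used in the fit lay at 3.99 to 4.17 and 7.33 to 7.54, and their median correlation with the other arrays at 0.972 to 0.988. For TNF replicate 4 the quartiles were 5.49 and 6.65, and the median correlation was 0.270. Genes of hypothalamic neurons were well measured on every array, with Oxt (oxytocin) at 9.66 to 10.61 in TNF and 9.80 to 10.78 in Control and Avp (vasopressin) at 9.27 to 9.89 and 8.95 to 10.51. Several arrays stood apart by markers of neighbouring brain regions and of the brain's coverings, which the plot of marker lists by array shows. The mean of 14 cerebellar markers was 1.69 above the Control mean on TNF replicate 2. The mean of 10 markers of serotonergic neurons was 1.45 above it on TNF replicate 5, as were 16 markers of midbrain dopaminergic neurons by 0.94. The midbrain markers also deviated by 0.53 on TNF replicate 1, 0.55 on Control replicate 4 and -0.49 on Control replicate 1. The mean of 9 striatal markers was 1.34 above the Control mean on TNF replicate 6. Among Control arrays, 19 markers of meningeal fibroblasts were 0.76 and 0.66 above the Control mean on replicates 1 and 4 and 1.01 below it on replicate 6. The mean of 16 markers of cortex, hippocampus and thalamus was 0.66 above the Control mean on Control replicate 6. For 8 pituitary markers the mean was 0.68 above it on the same array and 0.65 above it on TNF replicate 6. In whole tissue, fewer cells of a type and less RNA per cell cannot be told apart.

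**Figure D1:**
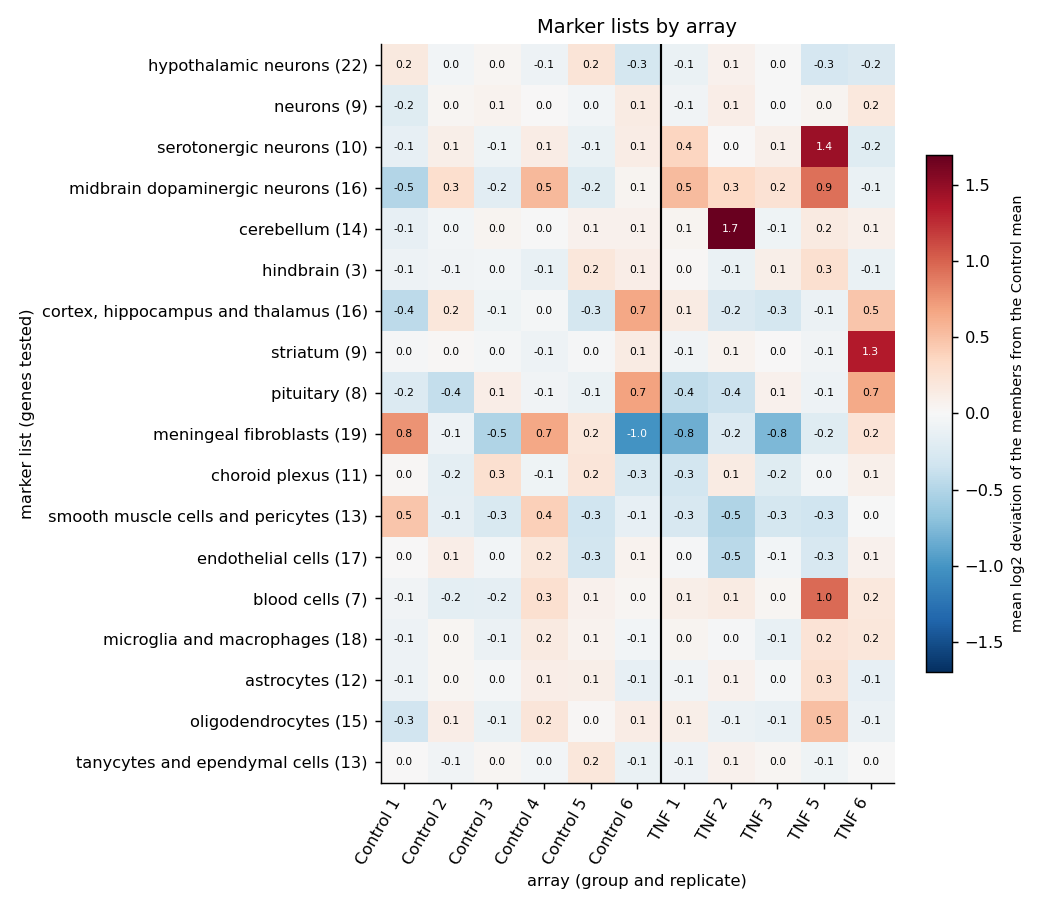
Heat map of 18 lists of marker genes (rows) on the 6 Control and 5 TNF arrays (columns), where colour gives the mean log2 intensity of the list's tested genes minus its mean over the Control arrays. The cerebellar list is high on TNF replicate 2 (1.69), the serotonergic list on TNF replicate 5 (1.45), the striatal list on TNF replicate 6 (1.34) and the meningeal list on Control replicates 1 and 4 (0.76 and 0.66).

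No gene differed between TNF and Control at an adjusted p under 0.05 (0% of 15049), and the smallest adjusted p was 0.261. At an unadjusted p under 0.05 there were 796 genes (5.29%), of which 476 (3.16%) were higher and 320 (2.13%) were lower in TNF. With only the 11 TNF and Control arrays in the fit, 340 were higher and 257 lower at this threshold. The higher genes were 59.8% of the 796 with the values as deposited, 50.5% after quantile normalization, 38.4% after median centring and 46.3% with array weights. At any size of difference, 8339 genes (55.4%) were higher and 6710 (44.6%) lower, with a median of 0.01. Differences ran from -0.83 to 1.41, and their median standard error was 0.10, which gave a median 95% interval of 0.20 to either side. By a fold over 1.5 of the group means, 23 genes (0.153%) were higher and 9 (0.0598%) were lower. The 5 TNF arrays lay all above the 6 Control arrays for 19 genes (0.126%) and all below them for 18 (0.12%). Of the 462 arrangements of 5 and 6 arrays, 1 separates them fully in a given direction, a share of 0.00216. Neither 0.126% nor 0.12% exceeds that share, so non-overlap of single genes is given below as a description only. In the paragraphs that follow, the adjusted p of each gene was 0.849 or higher unless another value is given.

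The TNF pathway itself did not separate the groups. Of 21 genes of the TNF receptors and NF-kB signalling, 8 were higher and 13 lower in TNF, and 0 had an unadjusted p under 0.05 in either direction, against 5.29% of all genes. Their median difference was -0.01, against 0.01 for all genes. Tnf, which encodes the cytokine, had levels of 4.26, 4.18, 4.57, 3.90 and 4.06 on the TNF arrays and of 3.75 to 4.48 with a median of 3.96 in Control. Both groups were of low intensity and overlapped, with a difference of 0.15 ± 0.14. Tnfrsf1a, which encodes TNFR1, stood at 5.99, 6.06, 5.82, 6.31 and 6.25, and at 5.67 to 6.40 with a median of 6.26 in Control. The 5 TNF arrays lay inside the Control range, with a difference of -0.05 (95% interval -0.33 to 0.24). Tnfrsf1b, which encodes TNFR2, stood at 4.83, 5.17, 5.01, 5.05 and 4.97, and at 4.97 to 5.34 with a median of 5.09 in Control. TNF replicate 1 was the lowest of all 11 arrays and the other TNF arrays lay within or at the Control range, and the difference was -0.11 ± 0.09. The members of smallest p in this list were Traf2, an adaptor that TNFR1 recruits (0.17 ± 0.10), Birc2, the ubiquitin ligase cIAP1 (0.14 ± 0.09), and Nfkb2, the precursor of the NF-kB subunit p52 (0.10 ± 0.08). All 3 overlapped between the groups.

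**Figure D2:**
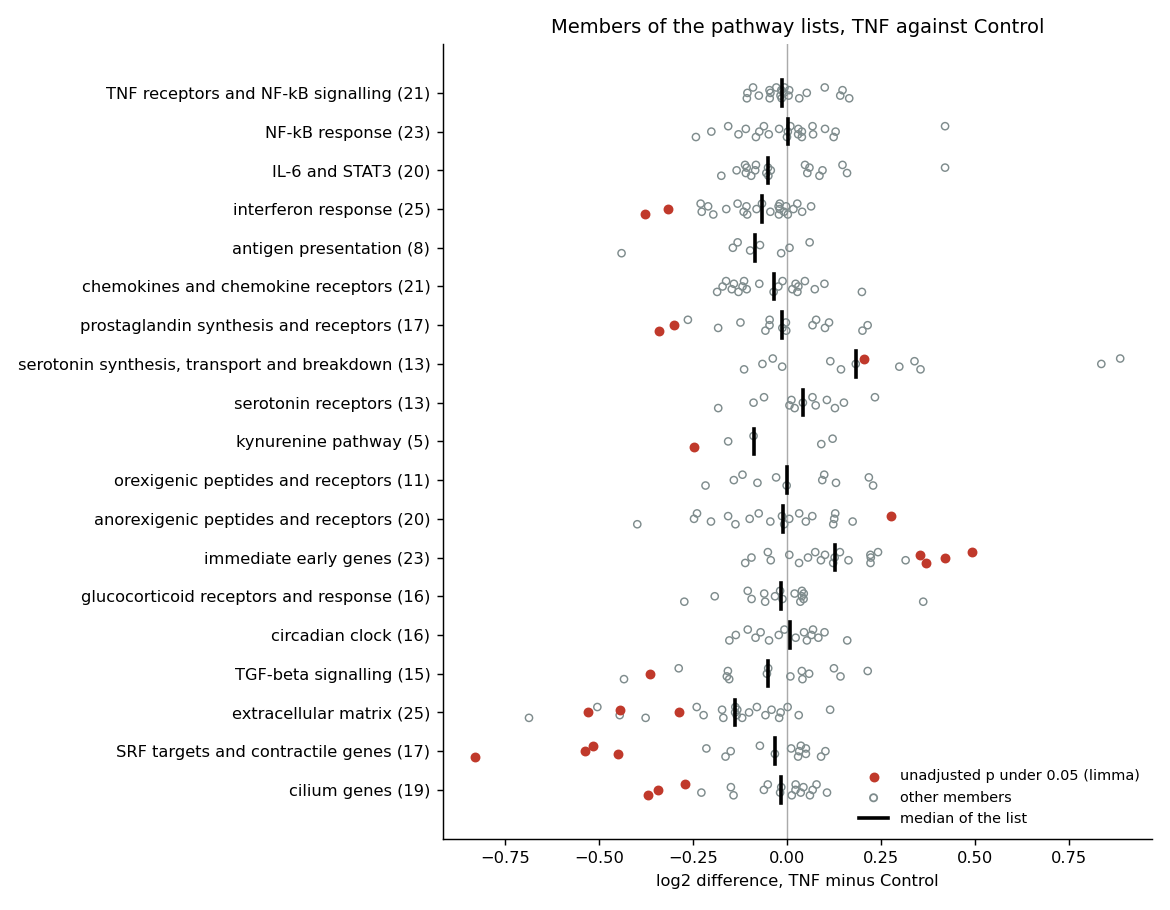
Difference of TNF and Control (log2) for each tested gene of 19 pathway lists, with 1 point per gene and a bar at the list's median. The points of the lists of TNF receptors, NF-kB response and IL-6 with STAT3 lie on both sides of 0, most points of the immediate early genes (19 of 23) lie above it, and most of the extracellular matrix (22 of 25) and interferon response (20 of 25) lie below it.

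Genes that NF-kB is known to induce were next examined, and the promoters of 2 of them are shown, since these genes are a common readout of TNF. An NF-kB site, searched on both strands, was sought in the promoter window (250 bases before to 50 bases after the start). It was found for 11 of the 18 tested genes of the NF-kB response list with a promoter in the RefSeq table (61.1%). This compares with 751 of all 11803 tested genes with a promoter (6.36%) and 1388 of 27025 genes of that table (5.14%). The 250 bases before the start of Nfkbia and of Cxcl1 (RefSeq, GRCm38.p6) are given here with the matched sites in capitals. The Nfkbia window is chr12:55492648-55492897 on the minus strand, with the match beginning 29 bases before the start. The Cxcl1 window is chr5:90890995-90891244 on the plus strand, with 2 overlapping matches that begin 71 and 70 bases before the start.
Nfkbia: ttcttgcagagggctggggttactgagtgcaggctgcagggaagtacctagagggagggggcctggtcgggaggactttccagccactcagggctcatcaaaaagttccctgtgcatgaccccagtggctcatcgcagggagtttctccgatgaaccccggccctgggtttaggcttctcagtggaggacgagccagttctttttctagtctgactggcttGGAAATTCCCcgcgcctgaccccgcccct
Cxcl1: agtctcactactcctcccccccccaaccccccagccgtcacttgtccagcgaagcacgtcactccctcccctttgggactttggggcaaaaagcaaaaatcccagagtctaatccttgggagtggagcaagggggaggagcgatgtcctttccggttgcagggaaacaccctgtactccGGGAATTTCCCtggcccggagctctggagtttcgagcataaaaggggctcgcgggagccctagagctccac

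The groups overlapped for Nfkbia and Cxcl1, whose means were lower in TNF. Nfkbia, which encodes the inhibitor IkBα and is among the earliest NF-kB targets, had levels of 7.29, 7.44, 7.0, 7.23 and 7.39 on the TNF arrays and 7.08 to 8.09 with a median of 7.34 in Control. The TNF arrays lay in the lower part of the Control range or just under it, with a difference of -0.20 (95% interval -0.51 to 0.10). Cxcl1, a chemokine for neutrophils, had levels of 4.67, 4.97, 5.33, 4.90 and 5.17, and of 4.82 to 5.59 with a median of 5.10 in Control. TNF replicate 1 was the lowest of the 11 arrays, the other 4 lay inside the Control range, and the difference was -0.13 (95% interval -0.37 to 0.11). Tnfaip3, which encodes the deubiquitinase A20 that shuts the pathway off, had levels of 4.70, 4.93, 4.83, 5.00 and 5.21, and of 4.69 to 5.13 with a median of 4.91 in Control. The groups overlapped almost fully, and the difference was 0.03 (95% interval -0.18 to 0.24).

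Over the whole NF-kB response list, 13 of 23 genes were higher and 10 lower in TNF, 0 passed an unadjusted p under 0.05, and the median difference was 0.00, or -0.03 after median centring. The other 8 of the 31 listed genes were not tested. Il6 was among those that did not reach the minimum intensity. Ccl2, the monocyte chemokine MCP-1, lay at 4.29, 4.18, 4.13, 4.35 and 4.40 on the TNF arrays and 4.07 to 4.71 with a median of 4.33 in Control. The 5 TNF arrays lay inside the Control range, with a difference of -0.07 (95% interval -0.29 to 0.14). Icam1, an adhesion molecule of the vessel wall, lay at 4.79, 5.31, 5.32, 5.45 and 5.31, and at 4.96 to 5.40 with a median of 5.18 in Control. TNF replicate 1 was the lowest and TNF replicate 5 the highest of the 11 arrays, and the difference was 0.04 (95% interval -0.19 to 0.27). The members of smallest p were Csf1, a growth factor of macrophages and microglia (-0.16 ± 0.08) and Tnip1, an A20 partner that restrains NF-kB (0.13 ± 0.08), with Nfkbia and Il1r1, the receptor of interleukin-1 (-0.24 ± 0.21), next in order. Lcn2, which encodes lipocalin-2 and was picked after its values were seen as the highest of this list, differed by 0.42 ± 0.41. Its TNF arrays stood at 4.89, 5.61, 5.10, 6.26 and 5.44, and its Control arrays at 4.59 to 5.47 with a median of 5.05, so that TNF replicates 2 and 5 lay above all Control arrays and the other 3 did not. Without TNF replicates 2, 5 and 6, which left only TNF replicates 1 and 3, the differences of Tnfaip3, Icam1 and Lcn2 were -0.14, -0.14 and -0.04.

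No gene of the IL-6 branch passed the threshold either. Of 20 tested genes of IL-6 and STAT3, 8 were higher and 12 lower, 0 had an unadjusted p under 0.05, and the median difference was -0.05. Il6ra, the receptor subunit that binds IL-6, differed by -0.05 (95% interval -0.24 to 0.14), and Il6st, the signalling subunit gp130, by -0.04 (95% interval -0.19 to 0.10). Stat3, the transcription factor they activate, differed by -0.05 (95% interval -0.25 to 0.15). Socs3, the feedback inhibitor that STAT3 induces, had levels of 4.69, 4.80, 4.97, 5.04 and 5.04 on the TNF arrays and 4.90 to 5.21 with a median of 5.02 in Control. TNF replicates 1 and 2 lay below all Control arrays and the other 3 within them, with a difference of -0.13 (95% interval -0.35 to 0.09). The STAT site TTCNNNGAA, on both strands, was in the promoter window of 3 of 18 tested genes of this list (16.7%), Socs3 among them. The share was 8.28% for all tested genes and 9.55% for all genes in the table.

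Interferon-response genes were mostly on the lower side in TNF, with overlapping groups. Of 25 tested, 5 were higher and 20 lower, with a median difference of -0.07, and 2 were lower at an unadjusted p under 0.05 (2.13% of all genes). Oas2, which makes the messenger that activates RNase L against viral RNA, had levels of 4.02, 3.75, 4.23, 4.36 and 4.28 on the TNF arrays and 4.18 to 4.78 with a median of 4.52 in Control. TNF replicates 1 and 2 lay below all Control arrays and the other 3 overlapped them, with a difference of -0.38 ± 0.16. Usp18, which removes ISG15 from proteins and dampens interferon signalling, had levels of 4.34, 4.10, 4.74, 5.16 and 4.58, and of 4.47 to 5.12 with a median of 4.96 in Control. TNF replicates 1 and 2 were again the lowest and TNF replicate 5 the highest of the 11 arrays, with a difference of -0.32 ± 0.14. Oasl2, a relative of the same enzyme family, differed by -0.23 ± 0.12. Averaged over the list, the 5 TNF arrays lay between -0.14 and -0.05 of the Control mean, and the Control arrays between -0.13 and 0.13 of it. Without TNF replicate 2, or without Control replicates 1 and 4, 0 were lower at that threshold. With TNF replicate 4 kept, 16 of 25 were higher, with a median of 0.01 where that of all genes was -0.10.

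Antigen presentation and chemokines gave no separation. Of 8 tested genes of antigen presentation, 2 were higher and 6 lower, with 0 at an unadjusted p under 0.05 and a median of -0.08. H2-Aa, a chain of MHC class II, had levels of 4.78, 4.76, 4.06, 5.19 and 5.16 on the TNF arrays and 4.48 to 5.98 with a median of 5.14 in Control. Control replicates 1 and 4 were the highest arrays, and the difference was -0.44 ± 0.27, or -0.10 without them. Of 21 chemokines and chemokine receptors, 8 were higher and 13 lower, again with 0 at that threshold and a median of -0.04. The smallest p were those of Ccl11, the eosinophil chemokine eotaxin (-0.19 ± 0.10), and Cxcl14, a chemokine made by many neurons (0.20 ± 0.11).

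Prostaglandins carry the fever signal of cytokines into the hypothalamus, and 17 genes of their synthesis and receptors were tested. Of these 6 were higher and 11 lower, with a median of -0.01, and 2 were lower at an unadjusted p under 0.05 (2.13% of all genes). Ptgis, the prostacyclin synthase of vessel walls, had levels of 4.72, 4.75, 5.11, 5.08 and 5.14 on the TNF arrays and 5.07 to 5.44 with a median of 5.34 in Control. TNF replicates 1 and 2 lay below all Control arrays, the other 3 lay above only Control replicate 2, and the difference was -0.34 ± 0.09 (unadjusted p = 0.000859, adjusted p = 0.911). Without Control replicates 1 and 4, which were high in smooth muscle and meningeal markers, it was -0.27. Ptgfr, the receptor of prostaglandin F2α, had levels of 4.10, 4.22, 4.39, 3.72 and 4.23, and of 4.32 to 4.58 with a median of 4.42 in Control, with only TNF replicate 3 inside the Control range and a difference of -0.30 ± 0.12. Ptgs2, the inducible cyclooxygenase COX-2, had levels of 5.62, 5.69, 5.51, 5.55 and 6.82, and of 5.33 to 6.07 with a median of 5.85 in Control. TNF replicate 6 was far above the rest, the other 4 TNF arrays were inside the Control range, and the difference was 0.07 (95% interval -0.28 to 0.41).

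The next comparison asked whether TNF alone changed serotonin genes, which the study singled out. Serotonin is made by raphe neurons of the brainstem, whose axons reach the hypothalamus. It is formed from tryptophan by TPH2 and then DDC and taken up again by the transporter SLC6A4. For synthesis, transport and breakdown of serotonin 13 genes were tested, of which 9 were higher and 4 lower, with a median of 0.18, and 1 was higher at an unadjusted p under 0.05 (3.16% of all genes). Tph2 had levels of 4.95, 3.79, 4.33, 8.47 and 4.16 on the TNF arrays and 3.74 to 4.69 with a median of 4.25 in Control. Slc6a4 had levels of 4.80, 4.18, 3.95, 8.58 and 4.45, and of 4.03 to 4.73 with a median of 4.37 in Control. For both genes TNF replicate 5 stood alone far above the other 10 arrays, which overlapped between the groups.

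The differences were 0.89 for Tph2 (exact permutation test, two-sided, p = 0.303) and 0.84 for Slc6a4 (exact permutation p = 0.355), and both had an adjusted p of 0.532 over the 3 genes tested this way. Over the 462 arrangements of these arrays the smallest possible p was 0.00216. Without TNF replicate 5 the differences were 0.05 and -0.01. This array was also the highest for Ddc, which makes dopamine as well as serotonin, with levels of 8.87, 8.56, 8.46, 9.36 and 7.41 on the TNF arrays and 7.84 to 8.67 with a median of 8.14 in Control. TNF replicate 6 was the lowest of the 11 arrays for Ddc, and the difference was 0.34 ± 0.25.

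Pts, an enzyme of the synthesis of tetrahydrobiopterin, the cofactor of tryptophan hydroxylase, had levels of 7.31, 7.30, 7.11, 7.44 and 6.79 and of 6.86 to 7.13 with a median of 6.98 in Control. TNF replicates 1, 2 and 5 lay above all Control arrays, TNF replicate 6 below them, and the difference was 0.21 ± 0.10, or 0.14 without TNF replicate 5. Gch1, the first enzyme of that pathway, differed by 0.30 ± 0.16. The serotonergic marker list, which shares Tph2, Slc6a4 and Ddc with these genes, had 8 of 10 tested genes higher, with a median of 0.35. It was 6 of 10 with a median of 0.05 without TNF replicate 5. The summed intensity of this list was 735.4 to 2495 on the TNF arrays and 953.6 to 1210 in Control, and 2 of its 12 markers were not tested. Pts did not pass an unadjusted p under 0.05 with only the TNF and Control arrays in the fit, after quantile normalization or after median centring. Over the synthesis list, 7 of 13 genes were higher without this array, with a median of 0.05 and 0 at an unadjusted p under 0.05. The part of the serotonergic and midbrain markers of this array in the values of the whole group was not tested beyond this.

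**Figure D3:**
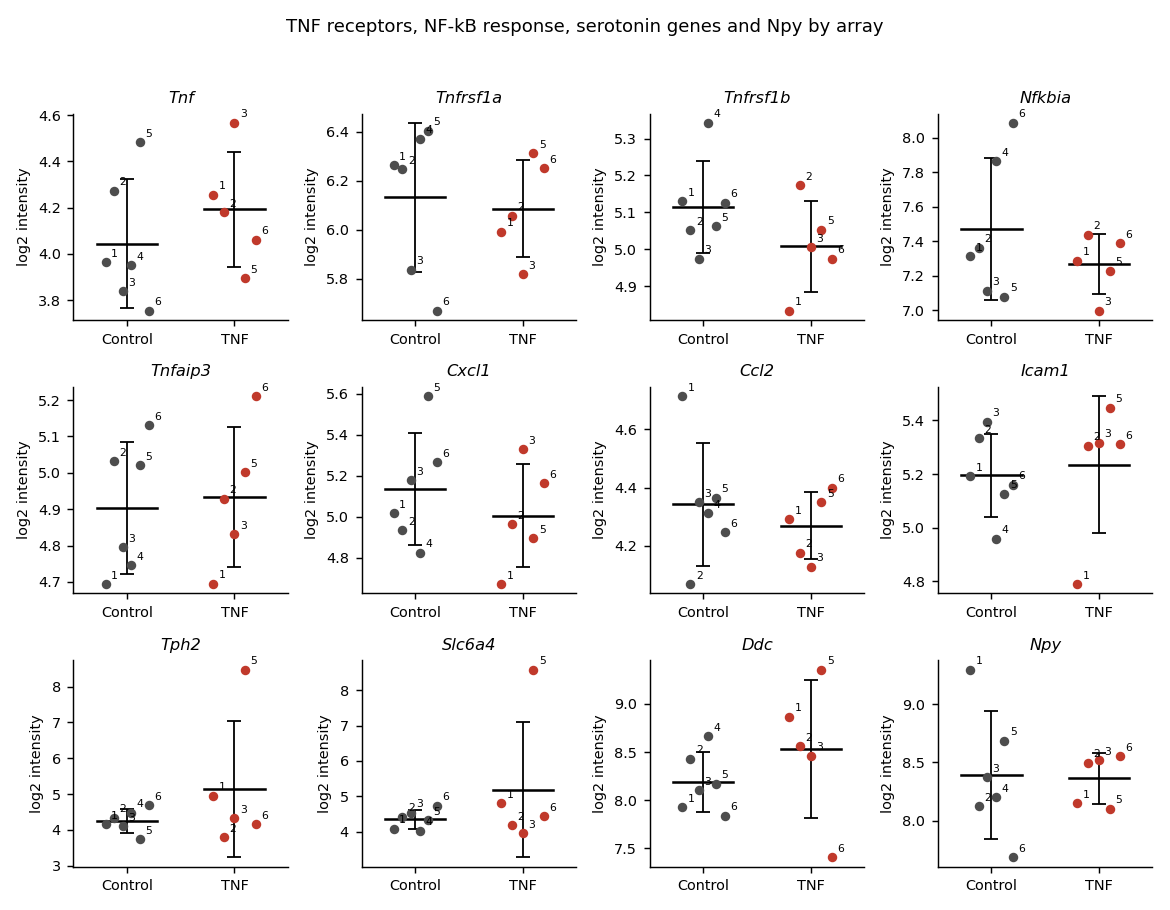
Log2 intensity of 12 genes on the 6 Control and 5 TNF arrays, each point an array numbered by replicate, with the group mean as a bar and the SD as the error bar. For Tph2 and Slc6a4 the array numbered 5 of the TNF group stands at 8.47 and 8.58, above all others, while the TNF receptors and NF-kB targets overlap between the groups.

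Of 13 serotonin receptors, 10 were higher and 3 lower, with a median of 0.04 and 0 at an unadjusted p under 0.05. Htr5b, a receptor abundant in the raphe and habenula, differed by 0.23 ± 0.12. Htr2a, the excitatory receptor of cortical and other neurons, differed by 0.15 ± 0.12, with its highest level (8.38) on TNF replicate 6. In the kynurenine pathway, the other route of tryptophan, only 5 of 12 genes were tested, with 2 higher and 3 lower. Ido2, an enzyme that opens this route, had levels of 4.40, 4.83, 4.82, 4.49 and 5.04 and of 4.79 to 5.25 with a median of 4.88 in Control, so that TNF replicates 1 and 5 lay below all Control arrays and the other 3 within their range. Its difference was -0.25 ± 0.11, at an unadjusted p under 0.05 (2.13% of all genes), which it did not meet with only the TNF and Control arrays in the fit.

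Neuropeptides of feeding showed no common direction. Of 11 orexigenic peptides and receptors, 5 were higher and 6 lower, with 0 at an unadjusted p under 0.05. Npy, the peptide of arcuate neurons that stimulates eating, had levels of 8.15, 8.50, 8.52, 8.10 and 8.56 on the TNF arrays and 7.68 to 9.30 with a median of 8.29 in Control. The 5 TNF arrays lay inside the Control range, whose highest array was Control replicate 1 and lowest Control replicate 6. The difference was -0.03 (95% interval -0.49 to 0.43), with an exact permutation p of 0.920. Within the 4 rows of the array plate, which hold replicate 1, replicates 2 and 3, replicates 4 and 5, and replicate 6, the Npy difference was -1.14, 0.26, -0.34 and 0.87. Hcrtr2, an orexin receptor, had the smallest p of this list, with a difference of 0.23 ± 0.13.

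Of 20 anorexigenic peptides and receptors, 9 were higher and 11 lower, with a median of -0.01, and 1 was higher at an unadjusted p under 0.05 (3.16% of all genes), Crhr1. With only the TNF and Control arrays in the fit 0 were higher and 1, Oxt, was lower at that threshold, and after quantile normalization, after median centring or with array weights 0 were. Pomc, whose product α-MSH ends meals, had levels of 6.02, 5.74, 5.96, 6.00 and 6.03 on the TNF arrays and 5.65 to 6.61 with a median of 5.99 in Control. The groups overlapped, and the difference was -0.07 (95% interval -1.26 to 1.11). Crhr1, the receptor of the stress peptide CRH, had levels of 6.43, 6.72, 6.32, 6.92 and 6.52, and of 5.84 to 6.62 with a median of 6.36 in Control. TNF replicates 2 and 5 lay above all Control arrays and the other 3 within them, with a difference of 0.28 ± 0.13. Oxt, at 10.12, 10.61, 10.01, 9.73 and 9.66 on the TNF arrays and 9.80 to 10.78 with a median of 10.46 in Control, overlapped between the groups and differed by -0.40 ± 0.24. Mc3r, a receptor of α-MSH, and Bdnf, a growth factor that limits food intake, differed by -0.25 ± 0.14 and 0.17 ± 0.09.

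Immediate early genes, which neurons switch on within minutes of strong activity, were on the higher side in TNF. Of 23 tested genes 19 were higher, with a median of 0.13, and 4 were higher at an unadjusted p under 0.05 (3.16% of all genes). Arc, which acts at synapses, had levels of 6.24, 6.20, 6.17, 7.35 and 7.65 on the TNF arrays and 5.59 to 6.50 with a median of 6.35 in Control. TNF replicates 5 and 6 lay far above all other arrays, the other 3 were inside the Control range, and the difference was 0.49 ± 0.20, or 0.26 without TNF replicate 6. Nr4a1, an orphan nuclear receptor, had levels of 6.82, 6.77, 6.61, 6.76 and 8.12, and of 6.48 to 6.78 with a median of 6.58 in Control. TNF replicate 6 stood alone, and the difference was 0.42 ± 0.19, or 0.14 without it. Fosl2, of the AP-1 family, showed the same array at the top, with levels of 6.07, 6.18, 6.06, 6.12 and 7.0 against 5.62 to 6.28 with a median of 5.87 in Control and a difference of 0.37 ± 0.16.

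Nr4a2, which is also a marker of midbrain dopaminergic neurons, had levels of 8.09, 8.27, 8.17, 8.35 and 7.85 and 7.33 to 8.29 with a median of 7.71 in Control, with TNF replicate 5 the only array above all Control arrays and a difference of 0.35 ± 0.16. Fos itself lay at 5.61, 5.74, 5.37, 6.20 and 5.63 and 5.23 to 5.66 with a median of 5.49 in Control, with TNF replicates 2 and 5 above all Control arrays and a difference of 0.24 ± 0.16. The mean of the 23 genes was 0.57 above the Control mean on TNF replicate 6 and 0.17 above it on TNF replicate 5, and between -0.02 and 0.04 on the other 3 TNF arrays. TNF replicate 6 was also the array high in striatal markers (1.34), and the part of that tissue in the values of the list was not tested. Without TNF replicate 6, 12 of 23 genes were higher and 1 had an unadjusted p under 0.05. Without TNF replicates 2, 5 and 6, 8 of 23 were higher and 0 had. The number higher at that threshold was 2 with only the TNF and Control arrays in the fit, 0 with array weights and 1 without Control replicate 1, Control replicate 6, or Control replicates 1 and 4.

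Genes of the stress axis and of the clock were split. Of 16 genes of glucocorticoid receptors and response, 7 were higher and 9 lower, with 0 at an unadjusted p under 0.05. Sgk1, a kinase that glucocorticoids induce, lay at 8.24, 8.22, 7.06, 7.61 and 7.66 on the TNF arrays and 7.05 to 8.79 with a median of 8.02 in Control, widely spread in both groups, with a difference of -0.27 (95% interval -0.90 to 0.35). Hsd11b1, which regenerates active glucocorticoid in cells, differed by 0.36 ± 0.19, with its highest level (6.98) on TNF replicate 5. Of 16 clock genes 8 were higher and 8 lower, again with 0 at that threshold, and the smallest p was that of the repressor Cry1 (0.16 ± 0.09).

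Zfhx3, a transcription factor abundant in the suprachiasmatic nucleus, where it sets the level of clock peptides, was the gene of smallest p among those lower in TNF. Its levels were 8.17, 7.78, 8.11, 7.86 and 8.16 on the TNF arrays and 8.31 to 8.64 with a median of 8.45 in Control. All 5 TNF arrays lay below all 6 Control arrays, and the difference was -0.44 ± 0.10 (adjusted p = 0.273). It was -0.32 without TNF replicates 2, 5 and 6, and within the 4 plate rows it was -0.13, -0.51, -0.59 and -0.49. Each row but that of replicates 2 and 3 holds 1 TNF array. Where the groups do not overlap, as here and for Ephx4, Incenp and Mks1, the direction within rows and subsets is fixed and adds no support. Of the peptides of the same nucleus, Nms (neuromedin S) lay at 4.53, 4.40, 4.39, 4.87 and 4.66 and 4.67 to 5.13 with a median of 4.80 in Control, and differed by -0.26 ± 0.11, at an unadjusted p under 0.05. TNF replicates 1, 2, 3 and 6 lay below all Control arrays for Nms, and TNF replicate 5 was above most of them. Vip, another peptide of this nucleus, lay at 6.45, 6.63, 6.51, 6.13 and 6.70 and 6.00 to 6.71 with a median of 6.25 in Control, overlapped between the groups and differed by 0.20 ± 0.15.

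The remaining genes of smallest p belonged to no common list, and none passed after adjustment. Ephx4, an epoxide hydrolase of the membrane, had levels of 6.38, 6.47, 6.22, 6.39 and 7.32 on the TNF arrays and 5.67 to 6.14 with a median of 5.92 in Control. All 5 TNF arrays lay above all Control arrays, with TNF replicate 6 highest, and the difference was 0.66 ± 0.14 (a fold of 1.58, adjusted p = 0.261). It was 0.47 without TNF replicate 6, and 0.71, 0.53, 0.41 and 1.18 within the 4 plate rows. Incenp, a subunit of the chromosomal passenger complex of dividing cells, had levels of 5.74, 5.71, 5.78, 5.76 and 5.96, and of 5.12 to 5.64 with a median of 5.36 in Control. The TNF arrays again lay all above Control, within a narrow range, and the difference was 0.43 ± 0.09 (adjusted p = 0.261). Its values in the plate rows were 0.62, 0.34, 0.40 and 0.45, and without TNF replicates 2, 5 and 6 it was 0.40.

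Mks1, a protein of the transition zone at the base of cilia, had levels of 5.42, 5.15, 5.40, 5.40 and 5.32 and 5.53 to 5.98 with a median of 5.68 in Control. All 5 TNF arrays lay below all Control arrays, with a difference of -0.37 ± 0.08 (adjusted p = 0.315) and values of -0.30, -0.41, -0.42 and -0.21 in the plate rows. Caln1, a neuronal calcium-binding protein, lay at 8.06, 8.63, 8.15, 8.60 and 8.94 and 7.61 to 8.22 with a median of 7.95 in Control, with TNF replicates 1 and 3 inside the Control range. Its difference was 0.53 ± 0.13 (adjusted p = 0.437), and 0.17 without TNF replicates 2, 5 and 6. The other higher genes by p were Cbr3, Tuba8, Psmg3, Fgf5, Rwdd1, Inhba and Dcbld1, whose differences ran from 0.28 to 0.54. Of these Psmg3, Rwdd1 and Inhba did not overlap between the groups.

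Inhba, which encodes the activin subunit that activity induces in neurons, had levels of 6.66, 6.58, 6.72, 6.76 and 7.23 and of 5.96 to 6.52 with a median of 6.39 in Control. TNF replicate 6 was the highest, and the difference was 0.47 ± 0.14, or 0.36 without it. The widest gap between the groups, 0.15, was that of Kcnj2, an inward rectifier potassium channel. Its levels were 6.23, 6.27, 6.23, 6.47 and 6.54 on the TNF arrays and 5.68 to 6.07 with a median of 5.86 in Control, with a difference of 0.47 ± 0.15. Among other genes that did not overlap were Mcm4, of the replicative helicase (0.24 ± 0.08), and Zfp354a, a zinc finger protein (0.26 ± 0.08). On the lower side these were Chrne, a subunit of the muscle acetylcholine receptor (-0.27 ± 0.08), Myo7a, an unconventional myosin (-0.13 ± 0.07), and Ptgr1, which inactivates leukotrienes and prostaglandins (-0.18 ± 0.09).

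**Figure D4:**
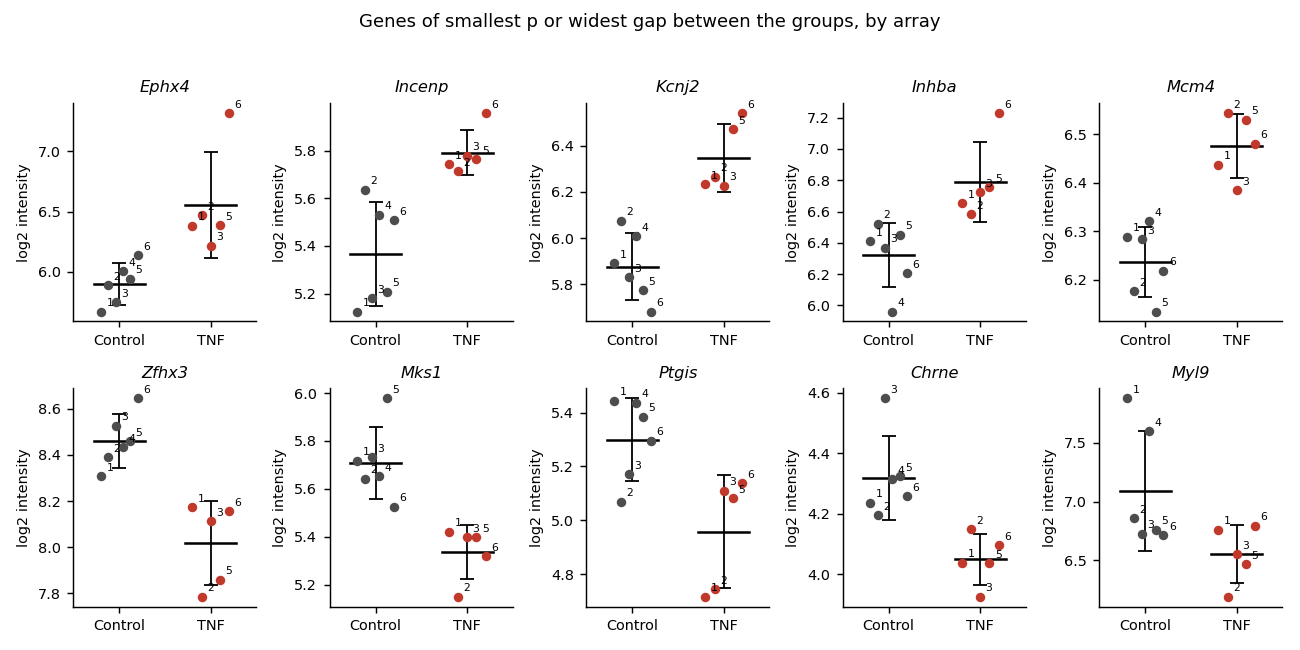
Log2 intensity of 10 genes of smallest p or widest gap on the 6 Control and 5 TNF arrays, each point an array numbered by replicate, with the group mean as a bar and the SD as the error bar. The 5 TNF arrays lie all above Control for Ephx4, Incenp, Kcnj2, Inhba and Mcm4, and all below for Zfhx3, Mks1 and Chrne, while Ptgis and Myl9 overlap.

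Other lower genes of small p were Krtap4-2, Fbp2, Ly75, Defb25 and Pla2g2c, with differences from -0.45 to -0.29, all of them with overlapping groups. Fbp2, the muscle form of fructose bisphosphatase, Defb25, a defensin, and Pla2g2c, a secreted phospholipase, were measured at low intensity, with Control levels of 3.98 to 4.52, 4.97 to 5.28 and 4.18 to 4.55. Within the 4 plate rows, 502 of the 796 genes with an unadjusted p under 0.05 (63.1%) kept one direction in all rows, against 14.2% of all genes. These rows hold the same arrays as the comparison itself.

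The genes of largest fold were each highest on TNF replicate 2, 5 or 6. Of the 23 genes higher by a fold over 1.5 (0.153% of all genes), the highest TNF array was replicate 5 for 14, replicate 2 for 5 and replicate 6 for 4, 10 belonged to a marker list of another cell type or region, and only Ephx4 did not overlap between the groups. Slc17a7, a vesicular glutamate transporter, had levels of 6.48, 7.59, 6.26, 9.13 and 9.53 on the TNF arrays and 4.84 to 7.55 with a median of 6.70 in Control. TNF replicates 2, 5 and 6 lay above all Control arrays, and the difference was 1.41 ± 0.61, or -0.02 without these 3. They were its highest TNF arrays, so a smaller value follows from leaving them out. Gabra6, a receptor subunit of cerebellar granule cells, had levels of 3.48, 8.15, 3.45, 3.43 and 3.20, and of 3.06 to 3.51 with a median of 3.23 in Control. TNF replicate 2 stood alone, and the difference was 1.1 ± 0.53, or 0.15 without it. Cbln3 and Neurod1, further genes of cerebellar granule cells, were highest on the same array, at 8.57 and 8.44, and differed by 0.16 and 0.22 without it.

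Slc6a3, the dopamine transporter, lay at 9.97, 9.40, 9.13, 10.35 and 8.02 and 6.77 to 9.88 with a median of 8.23 in Control, widely spread in both groups. Its difference was 1.03 ± 0.62, and 0.78 without TNF replicate 5. Chrna6, an acetylcholine receptor subunit of the same neurons, and Slc10a4, a vesicular carrier of monoamine and cholinergic neurons, had differences of 0.84 ± 0.44 and 0.81 ± 0.34. They were 0.59 and 0.50 without that array. Slc6a5, the glycine transporter of brainstem and spinal neurons, was at 7.85 on TNF replicate 5, with the other TNF arrays between 3.75 and 4.77. In the list of 16 midbrain dopaminergic markers 15 were higher, with 3 at an unadjusted p under 0.05 (3.16% of all genes) and a median of 0.35. Without TNF replicate 5, 14 were higher with a median of 0.19 and 0 at that threshold. Leaving out Control replicate 1 also left 0 at it, leaving out TNF replicate 6 gave 9, and with array weights there was 1. The summed intensity of these markers ran from 2276 to 5929 on the TNF arrays and from 1759 to 4152 on the Control arrays, so the groups overlapped.

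In this paragraph the array left out for a list was the highest in it, so smaller differences without it follow from that choice. Of 14 cerebellar markers 12 were higher, with 4 at an unadjusted p under 0.05 (3.16% of all genes), and 10 were higher with 0 at that threshold without TNF replicate 2. With only the TNF and Control arrays in the fit 0 were higher at it, and with a robust intensity trend or after median centring 1 was. Their summed intensity was 926.2 to 3017 on the TNF arrays and 975.4 to 1442 in Control. Of 9 striatal markers all 9 were higher, with 2 at that threshold (3.16% of all genes), and 0 with only the TNF and Control arrays in the fit or with array weights. Without TNF replicate 6, 4 of the 9 were higher, with 0 at it, and the median was -0.02, against 0.27 with it. Their summed intensity was 2752 to 6954 on the TNF arrays and 2812 to 3093 in Control. Ppp1r1b, the signalling protein DARPP-32 of striatal neurons, was at 8.20 on that array and at 5.95 to 6.58 on the other TNF arrays. Drd1, the dopamine receptor of the direct pathway, was at 7.80 on it and at 6.14 to 6.49 on the others. Of the 16 markers of cortex, hippocampus and thalamus, 8 were higher and 8 lower. Their mean was highest on Control replicate 6 (0.66 above the Control mean), followed by TNF replicate 6 (0.47). Of these markers Neurod2, a transcription factor of cortical neurons, was highest on TNF replicate 6 (6.21). Among 22 markers of hypothalamic neurons 3 were higher and 19 lower, with a median of -0.13, and their mean was lowest on TNF replicates 5 and 6 (-0.28 and -0.25) and Control replicate 6 (-0.30).

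The 9 genes lower by a fold over 1.5 (0.0598% of all genes) were all in marker lists, 6 of them in that of meningeal fibroblasts, and their highest array was Control replicate 1 for 6 and Control replicate 4 for 2. Slc13a4, a sulphate transporter of the meninges, had levels of 5.56, 6.05, 5.75, 6.30 and 7.22 on the TNF arrays and 5.54 to 8.14 with a median of 6.91 in Control. The Control arrays spread over a wider range than the TNF arrays, and the difference was -0.73 ± 0.39, or -0.18 without Control replicates 1 and 4. Fmod, a small proteoglycan of connective tissue, and Aldh1a2, the enzyme of retinoic acid synthesis in the meninges, differed by -0.69 ± 0.42 and -0.67 ± 0.38. They differed by -0.10 and -0.15 without these arrays. Igf2, Osr1 and Slc6a20a differed by -0.61, -0.60 and -0.64, and by -0.16, -0.05 and -0.15 without them. Over the list, 18 of 19 meningeal markers were lower, with a median of -0.30 and 0 at an unadjusted p under 0.05. Without Control replicates 1 and 4, which were chosen as high in these same markers, the median was -0.02, a shift that follows from the choice. Their summed intensity was 1424 to 3209 on the TNF arrays and 1256 to 4890 in Control, inside whose range all TNF arrays lay. Kcnj13, an inward rectifier from the choroid plexus list, was at 4.99, 7.04, 5.61, 6.67 and 7.42 and 4.80 to 8.35 with a median of 7.22 in Control, and Cga, the pituitary hormone subunit, at 4.18, 4.55, 6.02, 4.36 and 5.27 and 4.88 to 6.30 with a median of 5.46, with overlapping groups for both.

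The genes of the vessel wall were highest on the same Control arrays. Of 13 markers of smooth muscle cells and pericytes, 11 were lower, 6 of them at an unadjusted p under 0.05 (2.13% of all genes), with a median of -0.23. Their summed intensity was 1019 to 1568 on the TNF arrays and 1229 to 2475 in Control. Without Control replicates 1 and 4, 0 of the 12 tested were lower at that threshold. With all of these arrays, 2 were lower at it with only TNF and Control in the fit, 2 with a robust intensity trend and 2 with the replicate number as a block, and leaving out 1 array at a time gave 1 (TNF replicate 2, Control replicate 1 or Control replicate 4) to 7. Acta2, the smooth muscle actin, had levels of 6.81, 6.20, 6.85, 6.70 and 7.38 on the TNF arrays and 6.53 to 9.13 with a median of 7.18 in Control. Control replicates 1 and 4 stood far above all other arrays, and the difference was -0.83 ± 0.38, or -0.18 without them. Myl9, the light chain of smooth muscle myosin, had levels of 6.76, 6.19, 6.55, 6.46 and 6.79, and of 6.71 to 7.88 with a median of 6.81 in Control. The same Control arrays were highest, and the difference was -0.54 ± 0.16, or -0.21 without them, and -1.12, -0.42, -0.72 and 0.08 in the plate rows. Myh11 and Tagln, contractile proteins of the same cells, differed by -0.52 ± 0.24 and -0.45 ± 0.22, and by -0.13 and -0.03 without them, while Pdgfrb, the receptor of pericytes, differed by -0.23 ± 0.11 and -0.17.

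Contractile genes are classic targets of the serum response factor SRF, which binds the CArG box. A CArG box, on both strands, was in the promoter window of 4 of 14 tested genes of the SRF list with a promoter in the table (28.6%). The share was 1.58% for all tested genes and 1.81% for all genes in the table. The 250 bases before the start of Myl9 (chr2:156775214-156775463, plus strand, RefSeq, GRCm38.p6) are shown as the example among the genes above, with the CArG box in capitals, beginning 161 bases before the start.
Myl9: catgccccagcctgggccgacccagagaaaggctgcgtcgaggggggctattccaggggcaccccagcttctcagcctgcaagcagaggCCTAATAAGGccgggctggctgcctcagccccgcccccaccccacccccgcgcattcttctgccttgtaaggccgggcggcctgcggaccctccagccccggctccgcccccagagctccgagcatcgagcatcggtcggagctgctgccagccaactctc

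Of 17 SRF targets and contractile genes, 8 were higher and 9 lower, with a median of -0.03, and the 4 lower at an unadjusted p under 0.05 (2.13% of all genes) were Acta2, Myl9, Myh11 and Tagln, all from the smooth muscle list as well. Of these calls 2, Acta2 and Myl9, were made with only the TNF and Control arrays in the fit, where the list had 2, and the list had 1 with a robust intensity trend, 1 with the replicate number as a block and 0 without Control replicates 1 and 4. Of 25 genes of the extracellular matrix, 3 were higher and 22 lower, with a median of -0.14, and 3 were lower at that threshold (2.13% of all genes). Fbln1, a matrix glycoprotein, had levels of 6.21, 6.84, 6.56, 6.87 and 6.97 on the TNF arrays and 6.71 to 7.69 with a median of 6.99 in Control. TNF replicate 1 was the lowest and Control replicates 1 and 4 were the highest arrays, with a difference of -0.44 ± 0.16, or -0.21 without them. Eln (elastin) and Fn1 (fibronectin) differed by -0.29 ± 0.11 and -0.53 ± 0.22, and by -0.18 and -0.23 without them. Leaving out 1 array at a time, 1 (Control replicate 4) to 7 (TNF replicate 6 or Control replicate 6) of the list were lower at that threshold. Without Control replicates 1 and 4, 8 genes of the list were higher, and 0 had an unadjusted p under 0.05. Of 15 genes of TGF-beta signalling 7 were higher and 8 lower, and Ltbp4, which holds TGF-beta in the matrix, was the 1 lower at that threshold. Its levels were 7.16, 6.71, 7.21, 6.69 and 7.33 and 7.18 to 7.64 with a median of 7.42 in Control, with TNF replicates 2 and 5 lowest, and its difference of -0.37 ± 0.12 was -0.30 without these Control arrays.

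Of 17 endothelial markers 14 were lower, with a median of -0.17 and 0 at an unadjusted p under 0.05. Slc2a1, the glucose transporter of the blood-brain barrier, lay at 10.47, 10.29, 10.30, 10.38 and 10.36 and 10.06 to 10.96 with a median of 10.63 in Control. Control replicates 2, 4 and 6 were the highest arrays, and the difference was -0.24 ± 0.14.

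Microglial genes were on average higher on TNF replicates 5 and 6 (0.23 and 0.19 above the Control mean) and between -0.12 and 0.05 of it on the other TNF arrays. Of 18 markers of microglia and macrophages, 13 were higher and 5 lower, with a median of 0.09, and 2 were higher at an unadjusted p under 0.05 (3.16% of all genes). Tyrobp, the adaptor DAP12 of myeloid receptors, had levels of 6.11, 6.06, 5.68, 6.54 and 5.93 on the TNF arrays and 5.57 to 6.11 with a median of 5.68 in Control. TNF replicate 5 was the highest array and TNF replicate 3 lay among the lower Control arrays, with a difference of 0.29 ± 0.13. Aif1, the microglial protein IBA1, had levels of 4.69, 4.78, 4.63, 4.99 and 4.80, and of 4.38 to 4.73 with a median of 4.48 in Control. TNF replicates 2, 5 and 6 lay above all Control arrays, and the difference was 0.25 ± 0.11. P2ry12, a receptor of resting microglia, differed by 0.20 ± 0.10. Without TNF replicate 5, 11 of 18 were higher with a median of 0.04, and 0 were higher and 1 lower at that threshold. Without TNF replicates 2, 5 and 6, 9 of 18 were higher, with a median of 0.00. With only the TNF and Control arrays in the fit, 1 was higher at that threshold.

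That array also held the highest level of blood markers, with 5 of the 7 tested genes higher over the group and 6 of the 13 listed genes not tested. Their summed intensity was 184.6 to 354.3 on the TNF arrays and 150.5 to 264.4 in Control. S100a8 and S100a9, which encode the calprotectin of neutrophils, stood at 5.52 and 6.30 on TNF replicate 5. On the other TNF arrays they stood between 3.64 and 4.00 and between 4.73 and 5.09. Their differences were 0.55 ± 0.25 and 0.52 ± 0.22, and 0.21 and 0.24 without it. The part of blood in the microglial values was not tested.

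Other glial lists did not separate the groups. Of 12 astrocyte markers 8 were higher, with a median of 0.02 (-0.01 after median centring), and of 15 oligodendrocyte markers 12 were higher, with a median of 0.05. In both lists 0 had an unadjusted p under 0.05, and without TNF replicate 5 only 2 of the 15 oligodendrocyte markers were higher, with a median of -0.06. Of 13 markers of tanycytes and ependymal cells 6 were higher and 7 lower. Dio2, the enzyme by which tanycytes make active thyroid hormone, was the 1 higher at that threshold, with levels of 7.16, 7.09, 6.87, 7.48 and 7.88 and 6.73 to 7.29 with a median of 6.96 in Control. TNF replicates 5 and 6 lay above all Control arrays, and the difference was 0.32 ± 0.15. It did not pass with only the TNF and Control arrays in the fit, nor without TNF replicate 6.

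Of 19 cilium genes 9 were higher and 10 lower, and 3 were lower at an unadjusted p under 0.05 (2.13% of all genes), namely Mks1 and the dynein heavy chains Dnah12 and Dnah1, which drive motile cilia. Dnah12 lay at 5.80, 6.12, 6.02, 5.62 and 5.68 on the TNF arrays and 5.88 to 6.44 with a median of 6.21 in Control, and Dnah1 at 4.99, 5.19, 5.25, 4.81 and 5.02 and 5.11 to 5.49 with a median of 5.33. TNF replicates 5 and 6 were the lowest arrays for Dnah12 and lay below all Control arrays, as did TNF replicate 1, while for Dnah1 replicates 1, 5 and 6 lay below Control. The differences were -0.34 ± 0.12 and -0.27 ± 0.10. Over all 37 lists, 518 of the 609 genes were tested, of which 23 were higher (3.16% of all genes) and 19 lower (2.13% of all genes) at an unadjusted p under 0.05.

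The effect of TNF was then compared with its effect on mice that also received IL-6, which was measured on 24 other arrays. These enter the difference of TNF and Control only through the shared estimate of the spread. At each IL-6 dose the group with TNF was set against the group without it, and the differences at both doses were averaged. In the presence of IL-6, 739 genes (4.91%) had an unadjusted p under 0.05 and 0 passed after adjustment, with a smallest adjusted p of 0.845. Across the 15049 genes the 2 effects had a Pearson r of 0.0516 and a Spearman rho of 0.0654, and 52.1% of genes had the same sign. Genes are not independent replicates, and these are descriptions. The difference between the effects passed an unadjusted p under 0.05 for 603 genes (4.01%) and an adjusted p for 0, with a smallest adjusted p of 0.953.

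For the genes of smallest p, the effect with IL-6 was smaller in size than without it. These genes were chosen for their differences between TNF and Control, and the part of that choice in the smaller values was not tested. The effect with IL-6 was 0.15 ± 0.09 for Ephx4, -0.01 ± 0.06 for Incenp, -0.02 ± 0.07 for Zfhx3 and -0.07 ± 0.06 for Mks1. For the receptors and targets of TNF it was -0.04 ± 0.10 for Tnfrsf1a, 0.05 ± 0.10 for Nfkbia, -0.01 ± 0.07 for Tnfaip3 and 0.00 ± 0.08 for Cxcl1. For Tph2 and Slc6a4 it was -0.11 ± 0.38 and -0.03 ± 0.36, and for Npy -0.07 ± 0.15. Oxt, which differed by -0.40 without IL-6, had a difference of -0.42 ± 0.16 with it, and Avp had -0.21 ± 0.25 and -0.31 ± 0.17. The median over the lists moved to 0.02 for the immediate early genes (from 0.13) and to 0.13 for the meningeal markers (from -0.30). It moved to 0.03 for the extracellular matrix (from -0.14) and to 0.01 for the interferon response (from -0.07). Not all lists moved in this way. For the markers of hypothalamic neurons the median was -0.13 without and -0.10 with IL-6, and 3 of 22 were higher in both.

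An unadjusted p under 0.05 was met both without and with IL-6 by 17 genes in the same direction and by 10 in opposite directions. Of all 15049 genes, 5.29% met it without and 4.91% with IL-6. Whether the 17 exceed what these shares alone would give was not tested, so they are not read as shared effects. The following were picked from these after their values were seen. Kcnmb1, the accessory subunit of the calcium-activated potassium channel of smooth muscle, had levels of 4.79, 4.60, 4.83, 4.97 and 5.03 on the TNF arrays and 4.82 to 5.56 with a median of 5.12 in Control. TNF replicates 1 and 2 lay below all Control arrays, the other 3 among the lower ones, and the difference was -0.31 ± 0.12, with -0.31 ± 0.08 in the presence of IL-6. Dnajb9 and Dnajb11, chaperones of the endoplasmic reticulum, were higher by 0.22 and 0.23 without IL-6 and by 0.15 and 0.13 with it. In opposite directions were Runx3, a transcription factor of lymphocytes and sensory neurons (0.27 and -0.16), and Vipr2, the VIP receptor of the suprachiasmatic nucleus (-0.28 and 0.20). Chrne and Defb25 also had opposite signs, at 0.13 and 0.14 with IL-6.

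**Figure D5:**
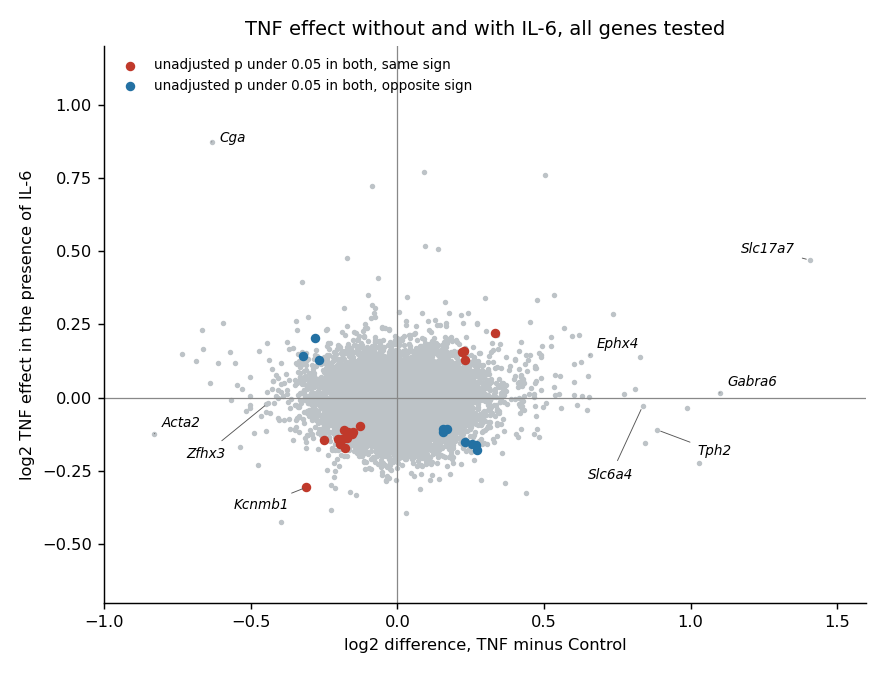
Difference made by TNF without IL-6 (horizontal axis, TNF minus Control, log2) and in the presence of IL-6 (vertical axis, mean of both IL-6 doses, log2), with 1 point per gene over 15049 genes and the named genes labelled. The cloud shows little slope (Pearson r 0.0516), and the genes farthest to the right, Slc17a7 (1.41) and Gabra6 (1.1), lie nearer to 0 on the vertical axis.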

How the data were processed

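The deposited values are log2 intensities of 36 arrays, made by the authors with RMA (version not given in the sources used here), and were analysed as deposited. Of 35556 transcript clusters, 21218 name 1 gene, 1881 several and 12457 none in the platform annotation, and only clusters of 1 gene were used, with the cluster of highest mean for the 1386 genes that had more than 1. Symbols were checked through Entrez numbers against RefSeq (GRCm38.p6), where 18790 of 18820 matched. Genes with an intensity over 20 on at least 3 of 35 arrays were kept (15049). The study states that it left out 1 TNF array without naming it, and TNF replicate 4 was left out here for its distribution.

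With limma 3.58.1 in R 4.3.3, a linear model with a term for each of the 6 groups was fitted (lmFit, then eBayes with an intensity trend), so that all 35 arrays share 1 estimate of the spread. P values were adjusted by Benjamini-Hochberg over all genes tested, with a threshold of 0.05. Exact permutation tests were run on Tph2, Slc6a4 and Npy. The number of arrays limits the precision. Gene lists are described by counts and medians, with no set test. The code was tested on simulated data. Plate rows were read from the array names and are positions on the array plate.

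Named genes are the TNF and IL-6 receptors, genes the study names, the 10 of smallest p and of largest fold in each direction, up to 4 of smallest p in each list, the 5 of widest gap in each direction and defining members of the lists. Predicted genes and olfactory receptors are not named. The groups, lists and rules were chosen with earlier results of these data known. One gene that the study names is not reported here. The probe remapping, the minimum number of probes and the pathway software of the study were not used.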

Additional observations from a re-analysis of the deposited data

Results flagged for a closer look

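Dixon's criterion was applied to 240 sets of arrays (120 named genes in the TNF and the Control group). By it, the highest or lowest array lay far from the others of its group in 29. Chance gives about 1 in 20 for sets that were not chosen by their values. Many of these genes were named for their values on the same arrays, so the 29 sets cannot be compared with that rate. TNF replicate 6 was the outlying array in 9 of them, all as the highest. Its log2 intensity was 6.82 for Ptgs2, 7.0 for Fosl2, 8.12 for Nr4a1, 7.32 for Ephx4, 5.96 for Incenp, 7.23 for Inhba, 8.20 for Ppp1r1b, 7.80 for Drd1 and 6.21 for Neurod2. TNF replicate 5 was the highest in 7, at 6.95 for Tnip1, 8.47 for Tph2, 8.58 for Slc6a4, 7.85 for Slc6a5, 5.86 for Slc17a8, 5.52 for S100a8 and 6.30 for S100a9. TNF replicate 2 was outlying in 4, as the highest for the cerebellar genes Gabra6 (8.15), Cbln3 (8.57) and Neurod1 (8.44) and as the lowest for Pomc (5.74). TNF replicate 1 was the lowest for Icam1 (4.79) and the highest for Ly75 (4.82).

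In the Control group, replicate 1 was the lowest for Tnip1 (6.23) and the highest for Mc3r (7.31), and replicate 2 was the highest for Ptgr1 (4.87). Replicate 3 was the highest for Nms (5.13) and Chrne (4.58), and replicate 4 was the highest for Slc6a5 (5.23) and the lowest for Drd1 (5.71).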

How the results depend on the processing

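Under all 25 alternatives 0 genes differed between TNF and Control at an adjusted p under 0.05, and the smallest adjusted p ran from 0.0908 (without Control replicate 2) to 1. Of 2963 values of 120 named genes under these alternatives, 2909 kept their direction and 54, in 29 genes, reversed. With TNF replicate 4 kept, 892 genes were lower at an unadjusted p under 0.05, 99 were higher and 826 lower by a fold over 1.5, and 10 were higher and 9 lower without overlap. Then Tnfrsf1a differed by 0.0848, Tnfrsf1b by 0.13, Birc2 by -0.0724, Cxcl1 by 0.0134, Tnip1 by -0.004, Ccl2 by 0.35, Socs3 by 0.18, Ptgs2 by -0.0742, Pts by -0.0325, Htr2a by -0.0822, Hcrtr2 by -0.0484, Pomc by 0.14, Cry1 by -0.13, Mcm4 by -0.0123, Fbp2 by 0.086, Pla2g2c by 0.12, Chrne by 0.0543, Ptgr1 by 0.0865 and Dnajb9 by -0.50. Genes without overlap on the lower side were 32 with no filter on intensity, and genes lower at an unadjusted p under 0.05 were 189 at a minimum intensity of 50 and 585 after median centring. With array weights 557 genes were lower at that threshold, 12 were higher and 18 lower by a fold over 1.5, the effects without and with IL-6 differed at that threshold for 1247, and Tnfaip3 differed by -0.0351, Icam1 by -0.063, Ptgs2 by -0.0361 and Npy by 0.0573.

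The replicate numbers were not taken as pairs in the main fit. Of the 5 correlations of same-numbered arrays 1 was below 0 (-0.06). TNF replicates 2, 5 and 6 correlated best with their own number in Control. For TNF replicate 3 the correlation was 0.20 with its own number and 0.22 with the best. These values do not settle whether the numbers mark pairs. With the replicate number as a block, 478 genes were higher and 327 lower at an unadjusted p under 0.05, and 25 were higher and 3 lower by a fold over 1.5. With the plate row as a block these were 487, 380, 24 and 7.

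Leaving out 1 array at a time gave 254 (Control replicate 1) to 884 (TNF replicate 3) genes higher and 192 (TNF replicate 5) to 513 (TNF replicate 6) lower at an unadjusted p under 0.05. It gave 14 to 46 genes higher (the same arrays) and 2 to 27 lower (Control replicates 1 and 6) by a fold over 1.5, and 24 to 133 higher and 28 to 76 lower without overlap, with the most without TNF replicate 3. The effects without and with IL-6 differed at that threshold for 377 (TNF replicate 5) to 1078 genes (TNF replicate 6). The difference ran from 0.0539 to 1.22 for Tph2, -0.01 to 1.15 for Slc6a4, -0.17 to 0.15 for Npy, -0.14 to 0.0208 for Tnfrsf1a, -0.0136 to 0.15 for Icam1, -0.0394 to 0.0894 for Tnfaip3, -0.18 to 0.15 for Ptgs2, -0.13 to 0.0007 for Ccl2 and -0.15 to 0.0424 for Pomc.

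Leaving out further arrays was added after the data were seen. The TNF arrays were chosen as high in markers of other brain regions, and leaving them out kept only TNF replicates 1 and 3. The Control arrays were chosen as high in meningeal markers. Smaller differences in those markers follow from the choice. Without TNF replicates 2, 5 and 6, 133 genes were higher at an unadjusted p under 0.05, 6 were higher and 53 lower by a fold over 1.5, and 262 were higher and 336 lower without overlap. Then Traf2 differed by -0.0201, Tnfaip3 by -0.14, Icam1 by -0.14, Lcn2 by -0.0414, Ptgs2 by -0.21, Arc by -0.0281, Slc17a7 by -0.0216, Slc6a5 by -0.0346 and Ppp1r1b by -0.10. Without Control replicates 1 and 4, 218 genes were higher at that threshold, 1 was lower by a fold over 1.5, 46 were higher and 88 lower without overlap, and the effects without and with IL-6 differed at it for 372. Then Tnfrsf1a differed by 0.0465, Tnfaip3 by -0.062, Ccl2 by 0.0116, Icam1 by -0.0198 and Npy by 0.15. The cause of these changes was not tested, except that fewer arrays leave more genes without overlap. Low intensity limits the values of several named genes, among them Tnf, Ccl2, Fbp2, Pla2g2c, Oas2, Ptgfr, Nms and Chrne.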
